A study of Mus musculus with 12 samples.

Results

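Histone genes of families H1, H2A, H2B, H3 and H4 were examined in lung RNA of mice given bleomycin, with and without a herbal preparation. Members were all genes of the deposited table named H1f, H2ac, H2bc, H3c or H4c followed by a number, with a summed estimated count of at least 10 over the 12 libraries. Of 56980 genes, 70 had such a name and 38 reached the minimum. The member just inside it had 12.2 summed counts and the gene just outside had 9.72. Of the 32 genes below the minimum, 12 were at 0 in every library.

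Histones are the proteins around which DNA is wound: H2A, H2B, H3 and H4 form the nucleosome core, and the linker histone H1 sits where DNA enters and leaves it. Most canonical histone genes are switched on in S phase, lie together in clusters, and give transcripts that end after a short stem-loop in place of a poly(A) tail. The protein Slbp binds that stem-loop, and Npat activates the clusters. Some histone transcripts are polyadenylated instead, and replacement histones such as H3.3 and H2A.Z are made throughout the cell cycle. The libraries were made from RNA selected on oligo(dT), so the values below are those of histone RNA recovered by that selection and not of all histone RNA.

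Lung tissue came from male C57BL/6 mice aged 6 to 8 weeks, with 4 libraries in each of 3 groups. The Control group received distilled water by mouth, and the labels give it no bleomycin. Model mice received bleomycin, a DNA-damaging drug used to produce lung fibrosis, as 1 instillation of 5 mg/kg into the trachea, and distilled water by mouth. HBG mice received the same bleomycin and Huashibaidu granules by mouth at 7 g/kg. Dosing times differ within the labels: from a week before bleomycin until day 28 in the series text, but from day 7 for 14 days in the sample text. Whether each library is a different mouse is not stated. The p-values therefore describe spread among libraries alone, and that spread may be technical.

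The sequenced depth ran from 17979863 to 27150787 rounded counts a library. The 6 markers of lung epithelium and endothelium summed to 59288 to 80832 CPM (counts scaled to a common library total) in Control, 33873 to 50900 CPM in Model and 27597 to 66389 CPM in HBG. Control 4, Model 2 and HBG 3 stood apart from the other libraries of their groups. Their summed B cell markers were 118.5, 181 and 261 CPM, against 12.2 to 51.2 CPM in the other 9 libraries, and their Cdkn1a levels were 55.4, 174 and 73.5 CPM against 477 to 751 CPM. Calls and direction counts of the members are given with and without them.

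The stem-loop was searched in the reference transcripts (GENCODE M21, GRCm38) as the 16-base histone stem-loop pattern on the transcript strand. It was found in 21 of 38 members (55.3%) and in 86 of 55450 genes in all (0.155%). The windows below show each form it took, with the stem-loop in capitals and 5 bases on each side. They matter here because transcripts that end at this element are the ones that lack a poly(A) tail.
H2ac18: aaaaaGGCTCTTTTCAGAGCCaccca
H4c8: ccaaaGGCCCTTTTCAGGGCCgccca
H4c11: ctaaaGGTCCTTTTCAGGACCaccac
H4c1: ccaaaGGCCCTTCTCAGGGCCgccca
The form of H2ac18 was found in 14 members, among them H2ac19, H1f2, H1f4, H2bc6 and H3c15, and that of H4c8 in 5. The forms of H4c11 and H4c1 were each found in 1 member. In 6 members the annotated transcript ended within 100 bases after the stem-loop (H2ac18, H2ac19, H2ac7, H4c8, H4c17 and H4c18). In 15 it ran on past that distance, and in 17 the motif was not in the transcript model. The last group held H1f0, H1f10, H2bc4 and H2bc21. A missing match says only that these letters are not in the model.

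Histone RNA in these libraries was dominated by 3 genes. Levels per kilobase of transcript, averaged over the 12 libraries, were 80.6 CPM per kb for the H2B gene H2bc4, 55.5 for the linker histone gene H1f2 and 50.7 for H1f0, the linker histone of differentiated and resting cells. Then came the H2A genes H2ac19 (16.3) and H2ac18 (11.5), the H4 gene H4c8 (6.65) and the H2B genes H2bc21 (4.91) and H2bc6 (2.77). H1f2 and H1f0 had overlapping CPM in every group, and their order per kilobase rests on the annotated lengths. Only H1f0, H2bc4 and H1f2 exceeded 20 CPM in any library, and together they made up 80.2% to 88.5% of the members' summed CPM. A filter on low counts kept 22 members for testing. The other 16 reached at most 0.757 CPM, in H4c14, and included the testis histone genes H1f6 and H1f9.

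The summed level of all 38 members was 414, 379.9, 456 and 307 CPM in Control libraries 1 to 4. It was 381, 250.8, 358 and 292 CPM in Model, against 345, 348, 213 and 335 CPM in HBG. The means were 389 ± 63.0, 320.3 ± 59.8 and 310.2 ± 65.1 CPM (SD, n = 4), so the groups overlapped. The lowest library of each group was Control 4, Model 2 or HBG 3. Without H1f0, H2bc4 and H1f2, the other 35 members summed to 60.1 to 90.4 CPM in Control, 32.8 to 51.7 CPM in Model and 32.2 to 62.0 CPM in HBG. On that sum every Control library was above every Model library, while HBG overlapped with Control. The sum includes H2ac18 and H2ac19, together at 21.7 to 31.0 CPM in Control and 6.56 to 7.31 CPM in Model. Without that pair Control and Model overlapped. These sums are descriptions and carry no test.

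**Figure D1:**
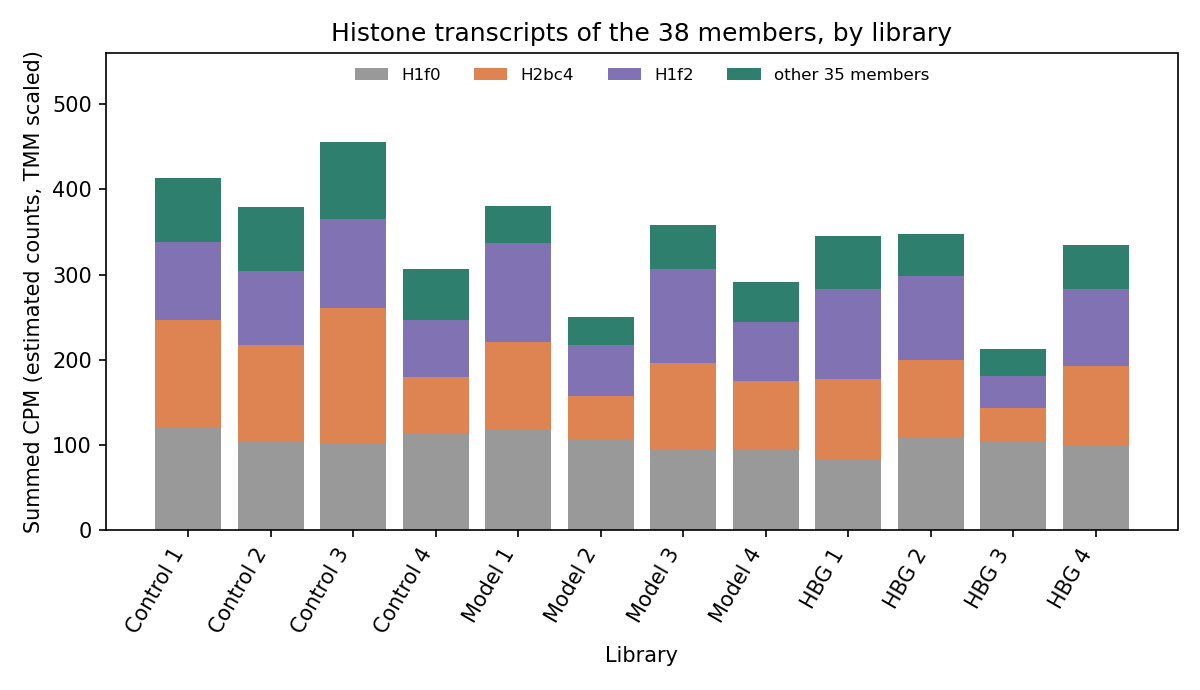
Stacked bars give the CPM of H1f0, H2bc4, H1f2 and the summed other 35 members in each of the 12 libraries. The H1f0 segment stays between 83.1 and 119.7 CPM, whereas the total ranges from 213 CPM in HBG 3 to 456 CPM in Control 3.

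Clusters were compared next. In the M21 annotation the members lie in 2 stretches of chromosome 13 (10 members in the stretch nearer the chromosome start and 19 in the stretch beyond it), in 1 cluster of 6 on chromosome 3, and at 3 single positions (H1f0 on chromosome 15, H1f10 on chromosome 6 and H1f9 on chromosome 11). The chromosome 3 cluster summed to 49.0, 43.5, 53.9 and 40.6 CPM in Control, 19.95, 17.6, 21.7 and 26.3 CPM in the Model group, and 30.5, 25.2, 20.7 and 29.6 CPM in HBG. Every Control library was above every Model and HBG library. H2ac18 and H2ac19 together made up 21.7 to 31.0 CPM of this sum in Control, 6.56 to 7.31 CPM in Model and 7.09 to 17.2 CPM in HBG. Without that pair the rest of the cluster overlapped between Control and both other groups. The larger chromosome 13 stretch, which holds H2bc4 and H1f2, summed to 146 to 292 CPM in Control, 122 to 236 CPM in Model and 83.9 to 222 CPM in HBG, and the smaller to 3.90 to 6.68, 4.01 to 6.20 and 2.98 to 7.32 CPM. In both stretches the groups overlapped.

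Model was set against Control to find what differed after bleomycin. Of 22 tested members, 1 was lower at a Benjamini-Hochberg adjusted p below 0.05 in edgeR's quasi-likelihood test and none was higher. Over all 17827 genes tested, 0.297% were called lower and 0.0505% higher. The member called was H2ac18. At an unadjusted p below 0.05, 3 members were lower and 0 higher, against 5.33% and 6.36% of all genes. The same 3, H2ac18, H2ac19 and H1f10, had Model libraries all below the Control libraries, which 4.51% of all genes did. No member had Model wholly above Control, which 4.2% of genes did. Model means were below Control in 16 of 22 members, against 48.5% of all genes, with a median log2 fold change of -0.31 against 0.01. Without Control 4, Model 2 and HBG 3 they were lower in 18 of 23 tested members. With near-identical members added up, they were lower in 10 of 14 (median -0.39). By position, 5 of 5 tested members of the chromosome 3 cluster were lower (median -1.05), 7 of 10 in the larger chromosome 13 stretch (median -0.31) and 2 of 5 in the smaller (median 0.01). With the GC content and length correction the chromosome 3 median was -0.58, with 5 of 5 still lower. These 5 are not separate measurements. H2ac18 and H2ac19 are 100% identical over 528 bases, and H3c14 and H3c15 99.9% over 669 bases. Both chromosome 3 medians are the values of H2ac19 itself.

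**Figure D2:**
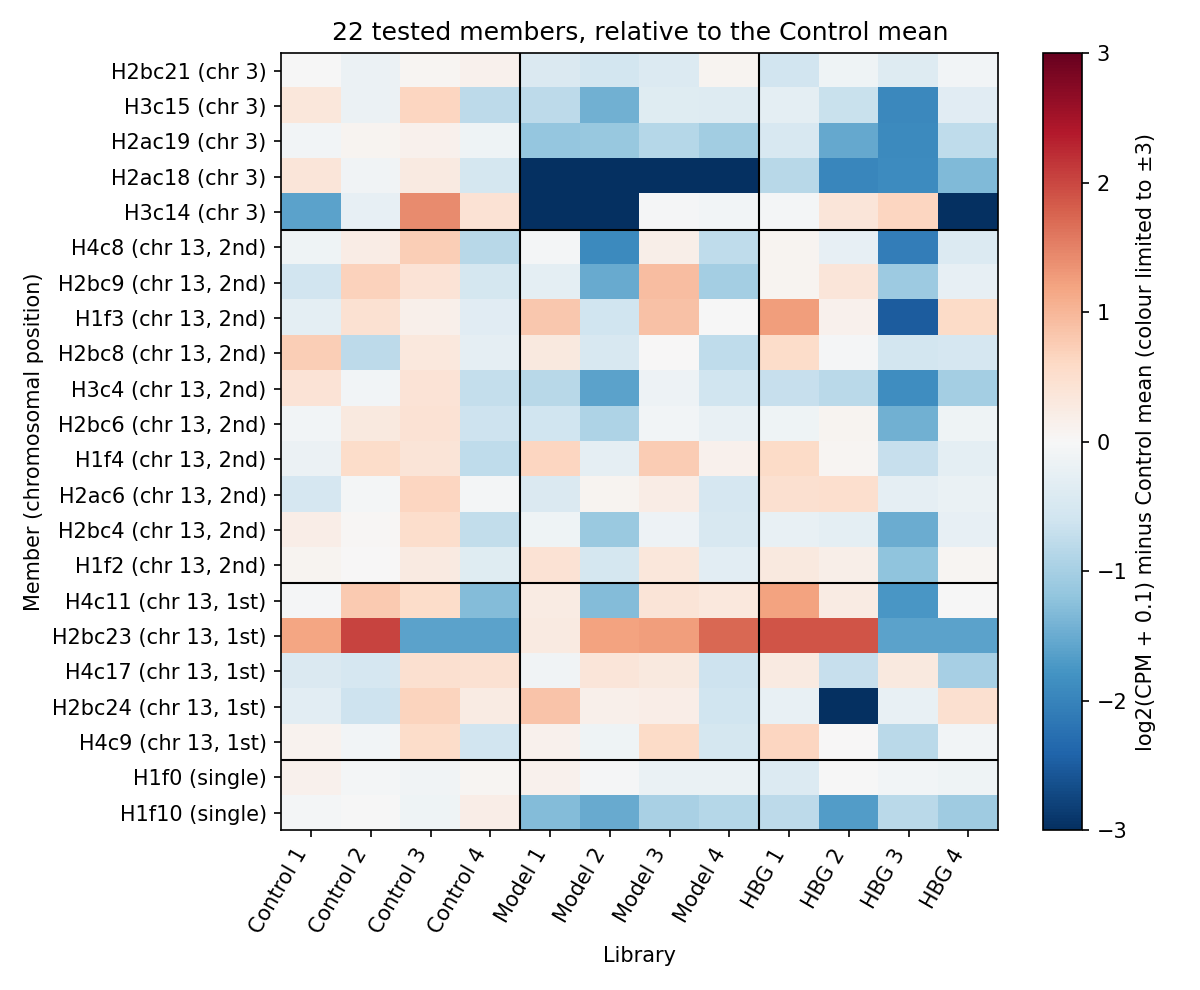
Colour gives log2(CPM + 0.1) of each of the 22 tested members in each library minus the mean of the 4 Control libraries, with members ordered by chromosomal position. H2ac18, H2ac19 and H1f10 are below the Control mean in all 4 Model and all 4 HBG libraries, and many members of chromosome 13 are low in HBG 3.

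H2ac18 and H2ac19 encode the same kind of H2A and lie next to each other among the members of the chromosome 3 cluster, on opposite strands. In GRCm38, H2ac18 (ENSMUSG00000064220) is a single exon at chr3:96245497-96246082 on the plus strand and H2ac19 (ENSMUSG00000063954) a single exon at chr3:96239749-96240276 on the minus strand. The 528 bases of the H2ac19 transcript are 100% identical to the H2ac18 transcript, so most reads fit either gene and the division between them rests on the authors' estimation. Their promoters, 250 bases before to 50 after the start in RefSeq (GRCm38.p6), are shown because both genes had Control libraries above all Model libraries. The RefSeq start of H2ac19 lies ahead of its M21 start, so its window holds no base of the M21 exon. Capitals mark CCAAT on either strand and TATAAA.
H2ac18 promoter, chr3:96245247-96245546, plus strand: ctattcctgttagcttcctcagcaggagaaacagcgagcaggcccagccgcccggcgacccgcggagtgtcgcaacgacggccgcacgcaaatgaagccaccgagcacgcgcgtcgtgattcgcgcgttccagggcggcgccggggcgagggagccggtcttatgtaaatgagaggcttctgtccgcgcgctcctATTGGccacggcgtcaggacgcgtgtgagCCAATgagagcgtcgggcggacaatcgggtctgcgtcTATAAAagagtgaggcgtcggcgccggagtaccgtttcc
H2ac19 promoter, chr3:96240325-96240624, minus strand: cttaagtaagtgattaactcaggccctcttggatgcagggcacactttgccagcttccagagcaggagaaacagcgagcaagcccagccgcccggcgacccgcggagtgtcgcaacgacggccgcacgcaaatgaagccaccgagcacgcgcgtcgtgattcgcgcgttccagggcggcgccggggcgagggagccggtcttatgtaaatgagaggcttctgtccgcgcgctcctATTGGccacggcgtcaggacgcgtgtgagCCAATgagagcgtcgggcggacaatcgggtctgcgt
The windows are shifted by 40 bases, and 249 of the 260 bases that overlap are identical (95.8%). CCAAT was found in both, on each strand. TATAAA was found in the H2ac18 window, and the H2ac19 window ends ahead of the matching place.

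H2ac18 was at 18.1, 12.9, 16.7 and 9.67 CPM in Control, 1.49, 0.606, 0 and 0.914 CPM in the Model group, and 7.79, 3.51, 3.69 and 5.55 CPM in HBG. No group overlapped with another. The 0 in Model 3 allows up to 0.133 CPM by counting error only. That bound leaves out how reads were divided with H2ac19, which was at 7.24 CPM in Model 3. The fold of H2ac18 rests on the same division, and the sum of both genes, given below, fell 3.88-fold. H2ac18 was 19.2-fold lower in Model than in Control (log2 fold change -4.26 ± 0.66 SE, edgeR adjusted p = 0.0195), in 4 of 4 libraries. The call was lost without Control 1 (adjusted p = 0.0681), Control 3 (0.0777) or Model 2 (0.0825), and without Control 4, Model 2 and HBG 3 together (0.0831).

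H2ac19 was at 12.4, 13.9, 14.3 and 12.0 CPM in Control, 5.82, 5.96, 7.24 and 6.34 CPM in the Model group, and 9.42, 4.49, 3.40 and 7.65 CPM in HBG. All Control libraries were above all others, and Model and HBG overlapped. The log2 difference from Control to Model was -1.05 ± 0.26 (SE), which did not pass in the fit of all groups (edgeR adjusted p = 0.157) but did in a fit of Control and Model alone (0.0137) and in DESeq2 (0.00905), which called 2.29% of genes.

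The reads assigned to H2ac18 made up 44.5% to 59.2% of the pair in Control and 42.0% to 52.0% in HBG, but 0% to 20.4% in Model. Because the transcripts cannot be told apart over most of their length, the 2 were also added before the fit. The sum was 30.5, 26.8, 31.0 and 21.7 CPM in Control, 7.31, 6.56, 7.24 and 7.26 CPM in the Model group, and 17.2, 8.00, 7.09 and 13.2 CPM in HBG. The 4 Model libraries lay within 1 CPM of each other and far below the lowest Control library. The sum fell 3.88-fold from Control to Model (log2 fold change -1.95 ± 0.25 SE, edgeR adjusted p = 0.00543), where 0.297% of genes were called lower. This call held in all 13 alternatives run on the sum, with adjusted p from 3.18e-11 to 0.0308. Without Control 4, Model 2 and HBG 3 it was -2.03 (adjusted p = 0.0117), and with the GC content and length correction -1.51 (adjusted p = 0.00399). In whole tissue, fewer cells of a type and less RNA per cell cannot be told apart.

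**Figure D3:**
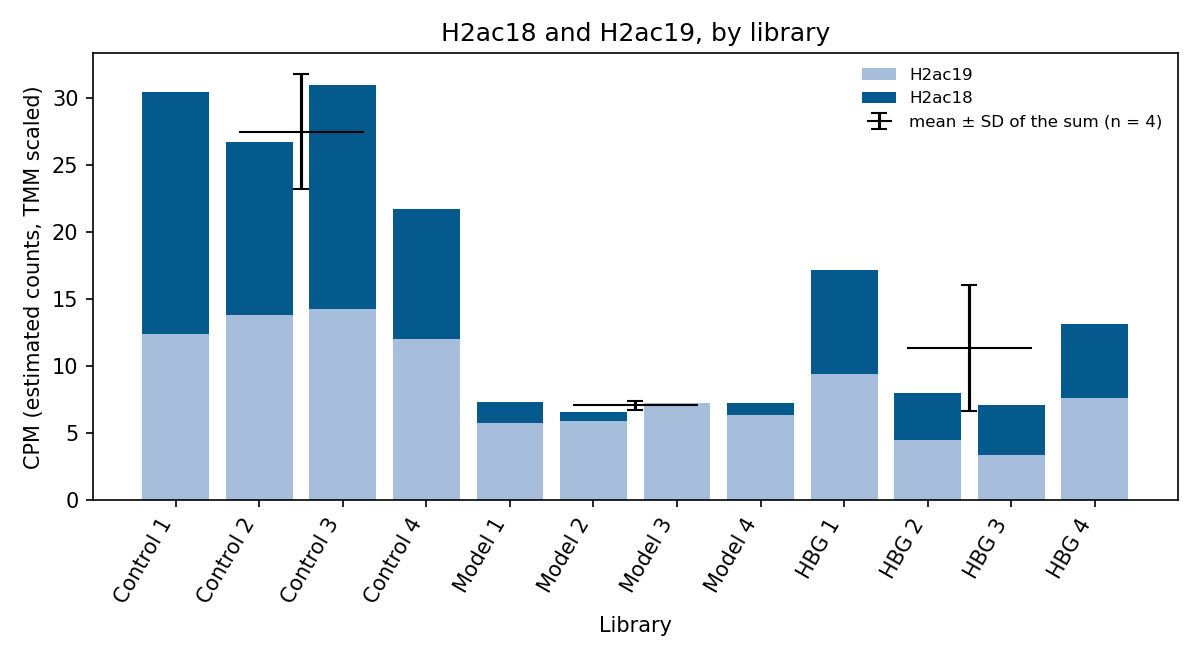
Bars give the CPM of H2ac19 with H2ac18 stacked on it in each library, and the horizontal lines with whiskers give the mean ± SD of the sum in each group (n = 4). Model libraries sit at 6.56 to 7.31 CPM with little in the H2ac18 segment, Control libraries at 21.7 to 31.0 CPM and HBG libraries between 7.09 and 17.2 CPM.

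For the H2A pair, HBG was compared with Model to ask whether the granules altered the levels after bleomycin. The sum was 1.60-fold higher in HBG (log2 difference 0.68 ± 0.25 SE), which did not pass (edgeR adjusted p = 0.9998), and HBG 3 was within the Model range. H2ac18 alone was 2.78 ± 0.64 (SE) higher on the log2 scale, with all 4 HBG libraries above all 4 Model libraries. That too missed the threshold (edgeR adjusted p = 0.9999, unadjusted p = 0.000965), although DESeq2 called it (adjusted p = 0.0152). The sum of the pair, which does not depend on the read division, passed in none of 13 alternatives, DESeq2 among them. Its lowest adjusted p was 0.860, in edgeR with 1 library left out. Over all genes 0.454% had HBG libraries wholly above Model and 0.673% wholly below. Across the 22 tested members, 0 were called by edgeR, and none of the 17827 genes was (0%). At an unadjusted p below 0.05 there were 433 genes (2.43%, with 0.735% higher and 1.69% lower), H2ac18 the only member among them. DESeq2 called 3 genes, 0.00876% of those it gave an adjusted p. Means were lower in HBG than in Model for 13 of 22 members (8 of 14 with near-identical members added up), against 49.9% of all genes. This count turned with single libraries: 5 of 23 tested members were lower without HBG 3, 7 of 23 without Model 3 and 19 of 23 without Model 2. It was 10 of 23 without Control 4, Model 2 and HBG 3 together. Between HBG and Control, which shares its libraries with the first comparison, the sum was 2.42-fold lower in HBG (log2 difference -1.27 ± 0.25 SE) and missed the threshold (edgeR adjusted p = 0.0878), in a fit that called 0.152% of genes. Without HBG 1 it passed (-1.55, adjusted p = 0.0181), and DESeq2 called it too (adjusted p = 0.000325). No member was called by edgeR in that comparison, against 0.151% of all genes (0.129% lower and 0.0224% higher). There, 4 members (H1f10, H2ac18, H2ac19 and H3c4) were lower at an unadjusted p below 0.05 and 0 higher, against 4.66% and 3.59% of all genes. The first 3 of these had HBG wholly below Control, as 3.92% of genes did, and no member lay wholly above, as 2.41% did. Means were lower in 18 of 22 members, against 49% of genes, and in 16 of 23 without Control 4, Model 2 and HBG 3. With near-identical members added up they were lower in 12 of 14. DESeq2 called 2 members, H2ac19 and H1f10, and 0.976% of genes.

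Of the 5 linker histones tested, H1f10 alone had Control libraries wholly above Model, a difference that was near 0 with the correction for GC content and length. H1f0 was at 119.7, 104, 101 and 114 CPM in Control, 119, 106, 96.0 and 95.1 CPM in the Model group, and 83.1, 109, 104 and 99.9 CPM in HBG. The ranges overlapped and no comparison passed. H1f2, a somatic H1 of the chromosome 13 cluster, was at 91.6, 87.1, 105 and 67.0 CPM in Control, 116, 60.3, 110.04 and 69.3 CPM in the Model group, and 105, 98.0, 37.6 and 90.4 CPM in HBG. It varied more within groups than between them. H1f4, another somatic H1, was at 0.937 to 2.45 CPM in Control, 1.36 to 2.85 CPM in Model and 0.992 to 2.52 CPM in HBG, with overlap throughout.

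H1f10, a divergent linker histone outside the clusters, was at 2.53, 2.65, 2.41 and 3.06 CPM in Control, 1.01, 0.858, 1.31 and 1.42 CPM in the Model group, and 1.49, 0.757, 1.46 and 1.22 CPM in HBG. Every Control library was above every other library. The differences from Control were -1.20 ± 0.26 (SE, log2) in Model (edgeR adjusted p = 0.0917) and -1.10 ± 0.26 in HBG (0.186), and neither passed. Its transcript has 71.3% GC, against a median of 49.3% over the tested genes. With the GC content and length correction the differences were -0.058 (adjusted p = 0.965) and 0.072 (adjusted p = 0.975). DESeq2, without the correction, called both (adjusted p = 0.00222 and 0.0122).

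Promoters of the abundant linker genes are shown next, as one is a cluster gene and the other is not. That of H1f2 has its CCAAT in capitals, and in that of H1f0 neither CCAAT nor TATAAA was found. The H1f0 window, placed by the RefSeq start, likewise lies wholly ahead of its M21 exon.
H1f2 promoter, chr13:23738557-23738856, plus strand: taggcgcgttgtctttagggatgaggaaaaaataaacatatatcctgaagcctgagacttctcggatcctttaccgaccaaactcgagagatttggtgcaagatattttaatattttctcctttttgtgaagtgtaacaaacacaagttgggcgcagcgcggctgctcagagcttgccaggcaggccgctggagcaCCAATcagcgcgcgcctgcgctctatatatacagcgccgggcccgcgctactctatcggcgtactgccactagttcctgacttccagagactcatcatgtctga
H1f0 promoter, chr15:79027962-79028261, plus strand: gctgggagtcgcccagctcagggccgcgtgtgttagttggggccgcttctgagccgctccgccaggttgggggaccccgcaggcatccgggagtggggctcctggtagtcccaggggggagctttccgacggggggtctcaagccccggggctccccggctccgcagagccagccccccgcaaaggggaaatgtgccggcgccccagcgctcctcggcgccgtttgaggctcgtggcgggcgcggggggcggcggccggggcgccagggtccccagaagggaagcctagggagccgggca
RefSeq promoters were matched for 34 of 38 members, all but H3c7, H2bc4, H2bc21 and H4c14. CCAAT, on either strand, was in 26 of 34 (76.5%) and in 37.4% of 32851 promoters in all. TATAAA was in 19 (55.9%) against 13.6%, and the octamer ATTTGCAT in 4 (11.8%) against 1.74%. By family, CCAAT was in 5 of 5 H2A, 7 of 7 H2B, 5 of 5 H3, 6 of 8 H1 and 3 of 9 H4 promoters, while TATAAA was in 7 of 9 H4 promoters. The octamer was found in 2 H2A and 2 H2B promoters. A match is a description of the sequence and no evidence of binding.

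Among H2B genes, H2bc4 was at 127, 113, 159 and 66.2 CPM in Control, 102, 51.5, 100.4 and 80.04 CPM in the Model group, and 94.5, 91.3, 39.2 and 93.0 CPM in HBG. Its lowest values were in Control 4, Model 2 and HBG 3, and the groups overlapped. The log2 difference was -0.48 ± 0.32 (SE) in Model (edgeR adjusted p = 0.592) and -0.55 ± 0.32 in HBG (0.674) against Control. H2bc21, of the chromosome 3 cluster, was at 14.6, 13.1, 15.2 and 15.9 CPM in Control, 10.8, 9.90, 10.9 and 15.6 CPM in the Model group, and 9.84, 13.5, 11.2 and 13.9 CPM in HBG. All Model libraries but Model 4 lay below Control, and the difference of -0.32 ± 0.16 did not pass (edgeR adjusted p = 0.491). H2bc6 was at 5.08 to 10.7 CPM in Control, 4.14 to 7.42 CPM in Model and 2.84 to 8.43 CPM in HBG. Transcripts of 7 H2B genes, H2bc4 and H2bc6 among them, are at least 95% identical to H2bc15 over its 381 bases or are H2bc15 itself. Longer transcripts among them are not alike throughout: H2bc4 and H2bc6 align over 33.9% of the shorter one. Added up, the 7 genes differed by -0.47 ± 0.32 between Model and Control (adjusted p = 0.596).

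The H3 and H4 genes were low. H3c15, the H3 gene beside H2ac19, was at 3.34, 2.30, 4.16 and 1.48 CPM in Control, 1.49, 0.909, 2.04 and 1.98 CPM in the Model group, and 2.15, 1.62, 0.614 and 2.05 CPM in HBG. The lowest Control library lay among the Model libraries. Differences from Control were -0.81 ± 0.42 (SE, log2) in Model (edgeR adjusted p = 0.493) and -0.81 ± 0.42 in HBG (0.637). The transcript of H3c15 is 99.9% identical to that of H3c14 over 669 bases, and the sum of both was 2.91 to 7.07 CPM in Control, 0.909 to 3.03 CPM in Model and 2.05 to 3.13 CPM in HBG. H4c8 was at 3.40, 4.35, 6.26 and 2.02 CPM in Control, 3.57, 0.909, 4.21 and 2.13 CPM in the Model group, and 3.92, 3.14, 0.803 and 2.77 CPM in HBG, with wide overlap. The pair H2bc23 and H2bc24, with 99.8% identity over 2002 bases, was divided unevenly between libraries: H2bc24 was at 0 in HBG 2, where H2bc23 was at 1.03 CPM, and H2bc23 was at 0 in HBG 4, where H2bc24 was at 1.28 CPM.

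Members were also summed by how their annotated transcripts end. The 6 members whose models end at the stem-loop summed to 35.6, 32.1, 38.7 and 25.3 CPM in Control, 11.6, 8.68, 12.5 and 9.95 CPM in the Model group, and 22.5, 11.8, 9.07 and 16.5 CPM in HBG. Control was above both other groups without overlap, and H2ac18 and H2ac19 made up most of the sum. The 15 members whose models run past the stem-loop summed to 80.1 to 133 CPM in Control, 70.1 to 132 CPM in Model and 46.2 to 128 CPM in HBG. The 17 without the motif summed to 202 to 284, 172 to 237 and 158 to 219 CPM. In both of these classes the groups overlapped. Levels of other RNAs without a poly(A) tail are given for comparison. Malat1, a nuclear RNA with a triple-helix end in place of a poly(A) tail, was at 4608, 5250, 4419 and 4172 CPM in Control, 2789, 2215, 2992 and 3149 CPM in the Model group, and 2367, 3567, 1759 and 2804 CPM in HBG. The groups did not overlap with Control, and the fit did not call the difference (adjusted p = 0.201 for Model and 0.230 for HBG). Of 5 tested RNAs listed for this purpose (Malat1, Neat1, Rn7sk, Rn7s1 and Rn7s2), 5 had lower means in Model than in Control and 0 were called. The count of Neat1 does not separate its transcripts with a poly(A) tail from those without. Rn7s1 and Rn7s2 among them had identical values in every library, so these are 4 separate measurements. The part of RNA selection in the histone differences was not tested.

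Proliferation was then set beside the histone levels. Mki67, a marker of cycling cells, was at 6.25, 3.80, 4.97 and 29.4 CPM in Control, 8.43, 41.6, 11.3 and 9.34 CPM in the Model group, and 13.2, 8.33, 67.1 and 8.21 CPM in HBG. Control 4, Model 2 and HBG 3 were each the highest of their group. The same libraries had the highest Top2a, the topoisomerase of dividing cells (17.1, 25.3 and 43.4 CPM against 4.304 to 12.5 CPM), Mcm5 of the replicative helicase (9.33, 16.6 and 22.9 CPM against 4.05 to 8.96 CPM), Rrm2 of nucleotide synthesis (7.21, 7.12 and 14.3 CPM against 2.40 to 4.06 CPM) and the mitotic cyclin Ccnb1 (3.21, 4.95 and 6.57 CPM against 0.350 to 2.04 CPM). Pcna, the replication clamp, was highest in HBG 3 (85.6 CPM) and in Control 4 (61.7 CPM) lay inside the Control range of 58.3 to 68.6 CPM.

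Summed histone RNA was lowest in these same libraries. Control 4, Model 2 and HBG 3 had the lowest total of the members in their groups (307, 250.8 and 213 CPM). Of the 22 tested members, 12, 12 and 14 were lowest of their group in these libraries, where 27.4%, 34.6% and 38.3% of all genes were. By contrast, Control 3, Model 3 and HBG 1 were the highest of their group for 12, 12 and 13 members, against 21.6%, 18.7% and 29.4% of all genes. H1f2 was at 67.0, 60.3 and 37.6 CPM in Control 4, Model 2 and HBG 3, the lowest of each group, and H1f0, at 114, 106 and 104 CPM, was lowest in none. H4c17 and H4c18, whose transcripts are 99.8% identical, summed to 1.43, 1.16 and 1.18 CPM in these libraries, the highest of Control and of Model, while HBG 1 was higher in its group at 1.31 CPM.

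Since the libraries fell into 2 sets by Mki67, no correlation over all 12 is given. Over the 9 libraries of lower Mki67, the total of the members and the mean of 28 G2 and M phase genes had r = -0.305 and rho = -0.233, and r = -0.342 without Model 3 and Control 2, the 2 farthest from the median. The r was -0.228 on CPM without TMM factors, -0.201 without H1f0 and H1f10, and -0.00866 on the median log2 CPM of the members. The H2ac18 and H2ac19 sum had r = -0.621 and rho = -0.65, and r = -0.418 without the same 2 libraries. Control 1, 2 and 3 had the highest sums of the pair among these 9 libraries (30.5, 26.8 and 31.0 CPM). Their means of the G2 and M genes were low (-0.61, -0.81 and -0.47, log2 relative to the mean library). A relation to proliferation and the group difference cannot be told apart here. H1f2 alone had r = 0.508 and rho = 0.733, opposite in sign to the total, and H2bc4 had r = -0.401. These are a description over libraries of 3 groups, with no test. Other values that moved with Control 4, Model 2 and HBG 3 were B cell markers, as above (4 of 4 markers tested), T cell markers (25.1, 54.1 and 58.3 CPM against 4.404 to 21.95 CPM) and erythroid markers (4404, 5664 and 4455 CPM against 268 to 4386 CPM, with Control 1 close to Control 4). The endothelial genes Pecam1 (637, 1043 and 969.7 CPM) and Cdh5 (558, 1067 and 1069.6 CPM) were each highest of their group in these libraries too. The sum of the 6 lung markers that include them went the other way. It was lowest of its group in Control 4 (59288 CPM) and Model 2 (33873 CPM). In HBG 3 it was 35561 CPM, with only HBG 1 lower (27597 CPM). The part of all these markers in the histone levels was not tested.

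**Figure D4:**
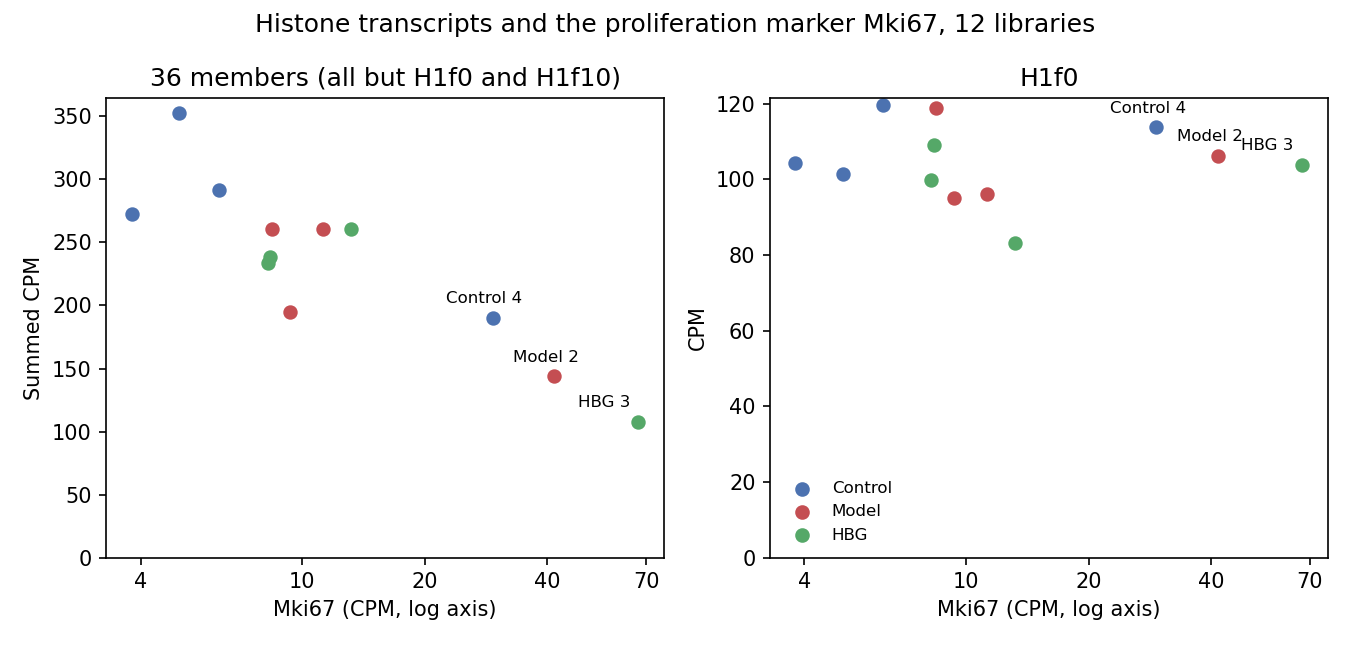
Each point is a library, coloured by group, with Mki67 (CPM, log axis) on the horizontal axis and on the vertical axis the summed CPM of 36 members (left) or the CPM of H1f0 (right). Control 4, Model 2 and HBG 3, at 29.4 to 67.1 CPM of Mki67, have sums of 190.3, 144 and 108 CPM, the lowest of their groups, and H1f0 near that of the other libraries.

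Genes around the histones were counted from lists of known function. No gene was called in any comparison among 30 S phase genes, 28 G2 and M phase genes, 15 genes of histone transcript processing, 16 histone chaperones or 7 inhibitors of cyclin-dependent kinases, all tested, where 0.348% of all genes were called between Model and Control, 0% between HBG and Model and 0.151% between HBG and Control. In Model against Control, 21 of 30 S phase and 26 of 28 G2 and M genes had higher means, with median log2 fold changes of 0.16 and 0.39 against 0.01 over all genes. Slbp was at 25.7 to 33.5 CPM in Control, 25.4 to 30.1 CPM in Model and 26.3 to 39.0 CPM in HBG, and Npat at 17.5 to 21.8, 19.6 to 25.6 and 18.8 to 31.6 CPM, both with HBG 3 highest. Of the cell markers, macrophage genes summed to 226 to 407 CPM in Control, 292 to 2435 CPM in Model and 378 to 1131 CPM in HBG, and heart muscle genes to 752 to 5056, 316 to 2938 and 304 to 3070 CPM. Both overlapped between Control and Model, and 0 of their genes were called. The summed lung markers did not overlap between Control and Model, as given above. Scgb1a1 of club cells, the largest part of that sum, was at 43241 to 61113 CPM in Control, 16277 to 31919 CPM in Model and 17564 to 47763 CPM in HBG. Its log2 difference between Model and Control of -0.86 ± 0.34 (SE) did not pass (edgeR adjusted p = 0.361), and 0 of the 6 lung markers were called. The sum of the lung markers and the H2ac18 and H2ac19 sum were thus both lower in all Model libraries than in all Control libraries. Marker by marker, 3 of 6 had higher means in Model and 3 lower (median log2 fold change -0.02). Only 1 of the 6 had Model libraries wholly below Control. The part of lung cell makeup in the histone values was not tested.

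Of 9 replacement histone genes, 1 was called lower in Model against Control, where 0.297% of all genes were. In HBG against Model and in HBG against Control 0 were called, against 0% and 0.151% of all genes. H2ax, the H2A variant that is phosphorylated at DNA breaks and whose transcripts occur with and without a poly(A) tail, was at 13.04, 10.5, 14.6 and 13.03 CPM in Control, 7.04, 7.62, 7.38 and 5.68 CPM in the Model group, and 8.35, 7.46, 9.88 and 8.48 CPM in HBG. Control was above both other groups without overlap. It was 1.84-fold lower in Model than in Control (log2 fold change -0.88 ± 0.15 SE, edgeR adjusted p = 0.0337). The call was lost in 12 of 16 alternatives, with adjusted p from 1.95e-05 to 0.387. Among them were the GC content and length correction (-0.53, adjusted p = 0.387), the omission of Control 4, Model 2 and HBG 3 together (0.0906) and of any single library except Control 2 (up to 0.122). The difference of HBG from Control, -0.58 ± 0.15, did not pass (adjusted p = 0.230), nor did that of HBG from Model, 0.30 ± 0.15 (0.9999).

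H2aj, a further H2A variant, chosen here after its values were seen, was at 93.9, 95.2, 106 and 51.6 CPM in Control, 43.1, 16.2, 39.1 and 35.1 CPM in the Model group, and 35.7, 35.1, 21.97 and 37.0 CPM in HBG. All Control libraries were above all others. The differences of -1.38 ± 0.30 in Model (adjusted p = 0.102) and -1.42 ± 0.30 in HBG (0.139) from Control did not pass in edgeR, and DESeq2 called both (0.000688 and 0.000575). H3f3a and H3f3b, which encode H3.3, and H2az1, an H2A.Z gene, overlapped between groups. H3f3a was at 369 to 423, 334 to 457 and 357 to 463 CPM in Control, Model and HBG. H3f3b was at 671 to 760.4, 610.1 to 733 and 497 to 715 CPM. H2az1 was at 97.4 to 115, 73.2 to 131 and 101 to 120.1 CPM. H2az2, the other H2A.Z gene, was at 49.9 to 59.8 CPM in Control, 31.4 to 42.5 CPM in Model and 35.03 to 46.2 CPM in HBG, with Control above both other groups. Its log2 differences from Control of -0.52 ± 0.12 (SE) in Model (edgeR adjusted p = 0.142) and -0.47 ± 0.12 in HBG (0.270) did not pass. HBG 3, the library of highest Mki67, had the highest H3f3a and H2az1 and the lowest H3f3b of its group.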

How the data were processed

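Polyadenylated lung RNA was sequenced as stranded paired reads of 150 bases, per the labels' protocols. The authors deposited a single table of estimated counts per gene. Its unit was read from the values: 10.0% to 15.1% of values per library were not whole. The builds mm10 and GRCm39 and, without role, DESeq2 1.34.0, HTSeq, HISAT2, STAR 2.7.9a, featureCounts 2.0.1, fastp, Trimmomatic 0.39, FastQC 0.11.9 and cutadapt are listed per the submitters' processing notes. The counter and its treatment of strand and of shared reads are not given in the sources used here. Counts were rounded. The 1542 rows without a gene name were kept in the library sizes and tests, under the same filter on low counts. CPM use TMM factors. A count of 0 allows up to 3 counts (0.111 to 0.167 CPM). Intervals of this kind cover counting error only.

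Tests used edgeR 4.0.16 (R 4.3.3, limma 3.58.1) on all 12 libraries with group as the only term, with Benjamini-Hochberg adjustment over 17827 genes and a threshold of 0.05. Replicate pairs differed by more than sampling noise. Members at least 95% identical over 90% of the shorter transcript (BLAST 2.17.0), directly or through another member, were added in an alternative. Other alternatives were DESeq2 1.42.0, RLE factors, no filter, the compared groups alone, the replicate number as a block, each library left out, Control 4, Model 2 and HBG 3 left out, and a correction for GC content and length. GC came from M21 transcripts (98.1% of tested genes). Alternatives on the summed H2ac18 and H2ac19 reads, and the correlation over 9 libraries, were chosen after seeing the data. A correlation over 12 libraries was planned and is not given, since the libraries fell into 2 sets by Mki67. Correlations planned within groups are not given either. The fits were tested on simulated data.

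Members and lists were chosen with earlier results of these data known. Named genes are members past the threshold, the 10 members of highest mean CPM, H1f0, H1f10, listed genes past the threshold and a set of proliferation, histone factor and replacement histone genes. Genes outside that rule are given for counts of 5 or fewer or where a read division is shown. Exceptions are the variants H2aj and H2az2 and the lung markers Pecam1, Cdh5 and Scgb1a1. The other lung markers appear only in sums and counts.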

Additional observations from a re-analysis of the deposited data

Results flagged for a closer look

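Several values lay far from the other 3 libraries of their group by Dixon's criterion for 4 libraries (the gap to the nearest library over the group's range), which chance alone meets in about 1 group in 20. Low values were H2bc4 in HBG 3 (39.2 CPM, others 91.3 to 94.5), the total of all members in HBG 3 (213 CPM, others 335 to 348) and the summed H2ac18 and H2ac19 in Model 2 (6.56 CPM, others 7.24 to 7.31). High values were Mki67 in Control 4 (29.4 CPM), Model 2 (41.6 CPM) and HBG 3 (67.1 CPM), Top2a in Control 4 (17.1 CPM) and HBG 3 (43.4 CPM), Mcm5 in Model 2 (16.6 CPM), Ccnb1 in HBG 3 (6.57 CPM) and Rrm2 in Model 2 (7.12 CPM) and HBG 3 (14.3 CPM).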

How the results depend on the processing

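For Model against Control, 62 genes and 1 member were called. DESeq2 called 419 genes and 3 members (H2ac18, H2ac19 and H1f10), the fit of the compared groups called 2 members, and the omission of Control 4, Model 2 and HBG 3 left 0. With 1 library left out, 23 to 67 genes and 0 to 1 members were called. For HBG against Control, 27 genes were called, 198 genes and 2 members by DESeq2, and 16 to 25 genes with 1 library left out. For HBG against Model, 0 genes were called, and 3 genes and 1 member by DESeq2. The replicate numbers did not pair the libraries: correlations of same-numbered deviations ran from -0.357 to 0.481, so not every pair exceeded 0.1. With the replicate block, 25 genes and 0 members were called in Model against Control, where H2ac18 had an adjusted p of 0.0614, and 17 genes in HBG against Control. The sign of H1f10 in HBG against Control reversed with the GC content and length correction (0.072). The causes of these changes were not tested. The log2 ratio of the summed members kept within the spread between replicates in all 12 alternatives of each comparison. Medians over the tested members stayed below 0 in every alternative of Model against Control and of HBG against Control, and changed sign between alternatives in HBG against Model. Values near 1 CPM rest on few reads and are limited by depth.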
